A study of Mus musculus with 18 samples.

Results

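The genes described here, whose products make, package or recover fast neurotransmitters, were followed in the striatum and substantia nigra of wild-type mice. They were taken by symbol from the 2 tables of gene counts, 1 per tissue, and are 7 in number: *Slc17a6*, *Slc17a7*, *Slc17a8*, *Slc32a1*, *Gad1*, *Gad2* and *Slc6a5*. The nigra table, which lists 20897 genes, held all 7 of them. The striatum table, which lists 20257 genes, held 6, with no row for *Slc6a5*; neither table lists a gene with a count below 1 in any library. Every listed gene with a row also passed the filter on low counts.

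Each tissue was sampled in 3 groups of 3 libraries from C57BL6 mice taken at 3 weeks. Mice labelled PBS had PBS injected into the striatum and PBS given intraperitoneally. Mice labelled 6-OHDA had 4 µg of 6-OHDA (6-hydroxydopamine, a toxin taken up by catecholamine neurons) injected into the striatum and intraperitoneal PBS. Mice labelled TUG469 had the same toxin and intraperitoneal TUG469, an agonist of the fatty acid receptor GPR40, at 10 mg/kg/day. The series was made to look into the mechanisms of TUG469. Libraries are named below by treatment and the number in their label. The labels do not say that every library came from a separate mouse, so p-values measure the spread between these libraries.

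A neuron that releases glutamate packs it into synaptic vesicles with a vesicular glutamate transporter, and which of the family it uses depends on where the neuron lies. *Slc17a7* encodes VGLUT1, used above all by neurons of the cerebral cortex and hippocampus, and *Slc17a6* encodes VGLUT2, used by thalamic, hypothalamic and many midbrain and brainstem neurons. *Slc17a8* encodes VGLUT3, found in neurons that release another transmitter as well, among them cholinergic interneurons of the striatum and serotonin neurons of the raphe. GABA neurons make their transmitter from glutamate with the glutamate decarboxylases encoded by *Gad1* and *Gad2* and load it with the vesicular transporter VGAT, encoded by *Slc32a1*, which also carries glycine. *Slc6a5* encodes GlyT2, the plasma membrane transporter that refills glycinergic terminals. The projection neurons that make up most of the striatum use GABA, as do the neurons of the nigral pars reticulata. Neurons hold most of the mRNA of these transporters in their cell bodies and carry the protein to axon terminals, which can lie in another tissue.

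The promoters of the 3 vesicular glutamate transporter genes are shown because the one of them with the highest level was not the same in the tissues. Each line gives the 100 bases before the annotated transcript start nearest the start of the gene, on the gene's own strand, from RefSeq (GRCm38.p6). Capitals mark the GC box (GGGCGG or its complement CCGCCC), searched on both strands.
Slc17a7, chr7:45163821-45163920, plus strand: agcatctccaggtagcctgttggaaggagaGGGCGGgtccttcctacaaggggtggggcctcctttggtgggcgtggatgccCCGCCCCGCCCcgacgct
Slc17a6, chr7:51621730-51621829, plus strand: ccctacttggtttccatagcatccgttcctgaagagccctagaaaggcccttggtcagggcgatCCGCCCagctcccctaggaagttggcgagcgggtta
Slc17a8, chr10:89621250-89621349, minus strand: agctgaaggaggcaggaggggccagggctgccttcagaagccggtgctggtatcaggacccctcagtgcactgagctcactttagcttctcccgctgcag
In these windows *Slc17a7* had 3 GC boxes, 2 of which overlap, *Slc17a6* had 1 and *Slc17a8* had 0. The counts were the same over the 250 bases before each start. *Slc17a6* and *Slc17a8* each have another annotated start, not shown, with 0 GC boxes in its 250 bases. Over the 250 bases before the start, 32.7% of 32851 annotated promoters held at least 1 GC box, with the promoters of 1 chromosome left out of that count. A match is a stretch of letters and not a measured binding site.

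In the RefSeq annotation of GRCm38.p6, *Slc17a7* lies at chr7:45163921-45176139 and *Slc17a6* at chr7:51621830-51671126, both on the plus strand of chromosome 7. *Slc6a5* lies on the same strand at chr7:49906984-49963864. *Slc17a8* lies on the minus strand at chr10:89574020-89621249. *Slc32a1* (chr2:158607260-158615747), *Gad1* (chr2:70561303-70602014) and *Gad2* (chr2:22621015-22693877) are on the plus strand of chromosome 2. All 7 are protein coding. Of the 7 genes, 3 share bases with an annotated long non-coding RNA, *Slc17a6* with Gm33136, *Slc32a1* with Gm14204 and *Gad1* with Gad1os. The sources used here do not give the strand setting of the counting, so a share of those counts may belong to the non-coding partner.

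Depth was high and even. Total counts ran from 42242389 to 61992226 per striatal library and from 51665747 to 61933756 per nigral library. The tissue labels matched the genes that define each tissue. *Drd1*, the dopamine receptor of direct-pathway projection neurons, ran from 113 to 207 TPM in the striatum and from 1.36 to 4.56 TPM in the nigra. *Slc6a3*, the dopamine transporter, had a row in the nigra table alone. The toxin label was not matched by a loss of dopamine genes: *Th*, tyrosine hydroxylase, stood at 59.1 to 87.7 TPM in the nigral libraries labelled 6-OHDA and at 37.1 to 54.9 TPM in those labelled PBS. Nigral *Slc6a3* was 8.32 to 12.1 TPM in the libraries labelled TUG469, 31.96 to 49.2 TPM in those labelled 6-OHDA and 35.9 to 51.8 TPM in those labelled PBS. Directions below are therefore directions between libraries so labelled.

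In the striatum *Gad1* had the highest mean in the PBS libraries, as a level per transcript length (TPM). It stood at 375 ± 35.2 TPM, *Gad2* at 179 ± 26.0 TPM and *Slc32a1* at 168 ± 15.03 TPM (SD, n = 3 here and for every group mean below). *Slc17a7* followed at 158 ± 124 TPM, *Slc17a8* at 10.2 ± 3.71 TPM and *Slc17a6* at 2.48 ± 2.25 TPM. The ranges of *Gad2*, *Slc32a1* and *Slc17a7* overlapped, so their order in the striatum is not settled. *Gad1* stood above all of them in the PBS libraries, and *Slc17a8* and *Slc17a6* stood below, with no overlap. With 6-OHDA and TUG469 the mean of *Slc17a7* (264 ± 209 and 324 ± 224 TPM) was above those of *Gad2* and *Slc32a1*, with libraries on both sides of them.

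In the nigra of PBS mice *Gad1* again led, at 353 ± 45.5 TPM. *Slc17a6* came next at 211 ± 4.96 TPM, above *Gad2* at 173 ± 11.7 TPM and *Slc32a1* at 109 ± 11.9 TPM. *Slc17a7* was at 58.3 ± 33.1 TPM, *Slc6a5* at 2.89 ± 0.804 TPM and *Slc17a8* at 2.80 ± 1.25 TPM. *Slc6a5* and *Slc17a8* overlapped; every other neighbouring pair in that order was separated in the PBS libraries.

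**Figure D1:**
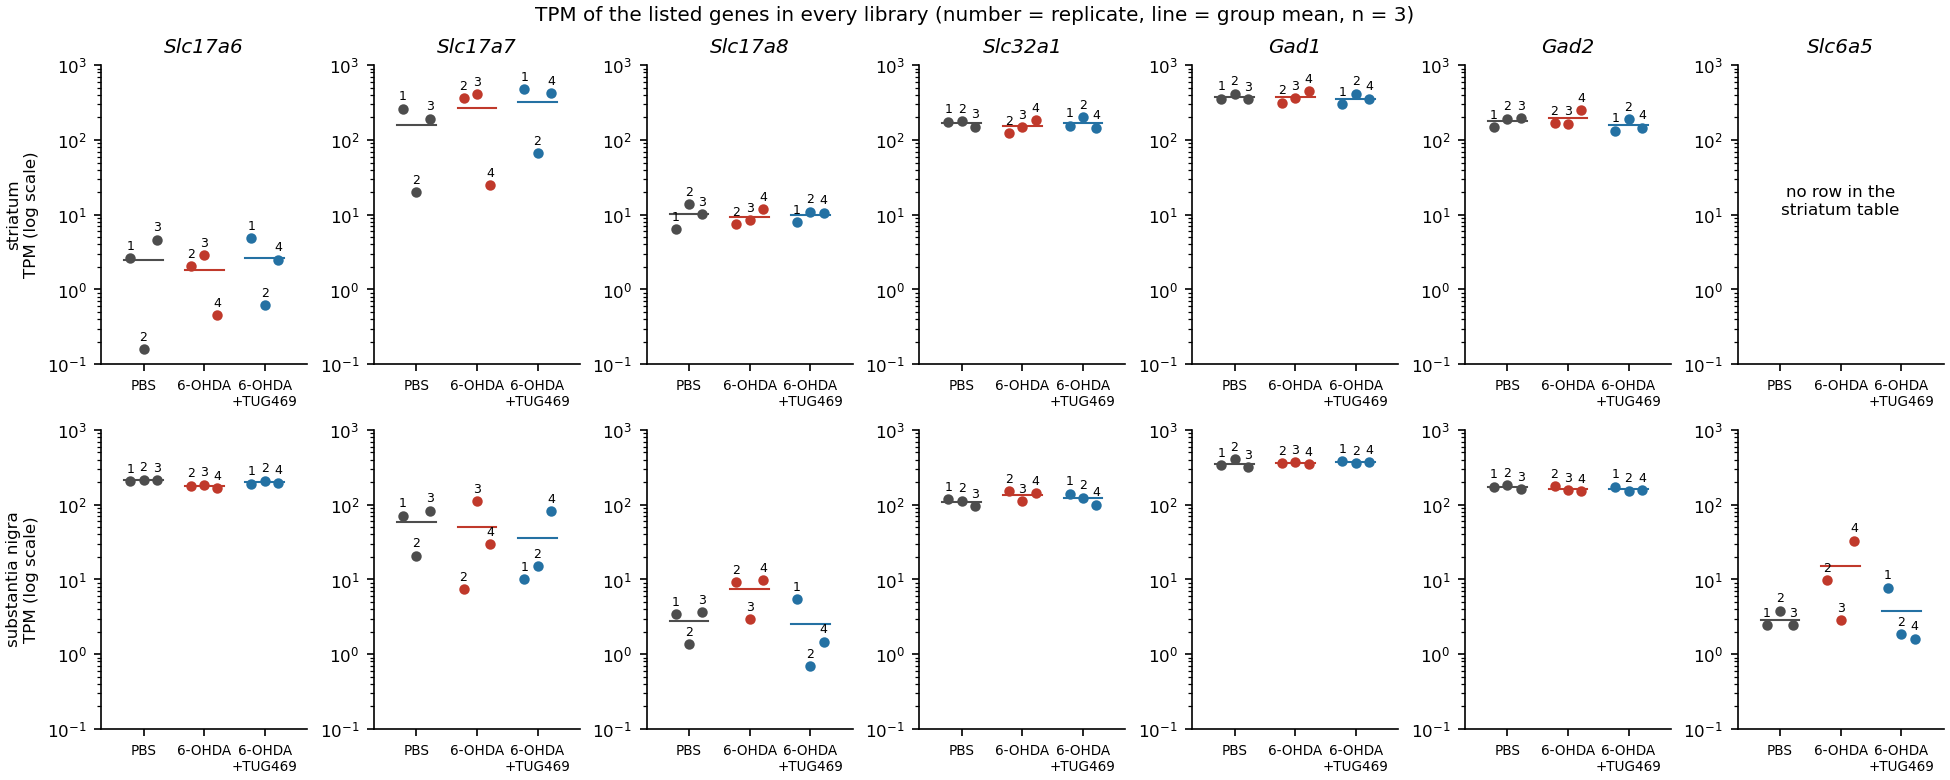
TPM of each gene in every library on a log axis, striatum above and substantia nigra below, with 1 point per library, its number beside it and a line at the group mean (n = 3). Striatal Slc17a7 and Slc17a6 drop in 1 library of every treatment (PBS 2, 6-OHDA 4, TUG469 2), whereas for Gad1, Gad2 and Slc32a1 the highest library of a tissue is at most 1.92 times the lowest in CPM.

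The clearest difference between the tissues was *Slc17a6*, 68.3-fold higher in the nigra than in the striatum of PBS mice (log2 difference 6.09, SE 0.756, adjusted p = 4.9e-06, edgeR quasi-likelihood test with Benjamini-Hochberg adjustment over the 18749 genes tested in both tissues; adjusted p-values below are from the same test unless another tool is named, over 19115 genes for striatal and 19686 for nigral treatment comparisons). Its nigral PBS libraries were at 206, 216 and 213 TPM and its striatal ones at 2.605, 0.160 and 4.66 TPM. *Slc17a8* was 4.43-fold lower in the nigra (log2 difference −2.15, SE 0.598, adjusted p = 0.00611). *Slc32a1* was 1.76-fold lower (log2 difference −0.81, SE 0.166, adjusted p = 0.000577). Thus 1 of the 6 genes tested was higher in the nigra and 3 were lower, beside 55.8% of all genes that passed the same threshold in this comparison.

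The third of the lower genes, *Gad1*, differed by little. Its log2 difference was −0.38 (SE 0.134, adjusted p = 0.0237), a 1.30-fold lower level in the nigra. That call was lost without striatal PBS 2 (adjusted p = 0.113), without nigral PBS 1 (0.0718) and without nigral PBS 3 (0.0939). It was also lost by limma on log2(TPM + 1), where the difference was −0.093 (adjusted p = 0.548). For *Gad2* the log2 difference was −0.34 (SE 0.166, adjusted p = 0.0926). It passed the threshold without striatal PBS 1 (adjusted p = 0.0327), without striatal 6-OHDA 4 (0.0322) and with a trend on transcript length removed (0.0413). *Slc17a7* had a log2 difference of −1.70 with an SE of 1.15 (adjusted p = 0.223), with a 95% interval from −4.14 to 0.736.

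Which vesicular glutamate transporter led differed between the tissues. As a share of the summed TPM of the 3 genes, *Slc17a7* took 58.9 to 97.4% in the 9 striatal libraries. *Slc17a6* took 61.5 to 93.0% in the 9 nigral libraries, and no more than 2.24% in any striatal one. *Slc17a8* reached 40.7% in striatal PBS 2, 32.2% in striatal 6-OHDA 4 and 14.1% in striatal TUG469 2, the libraries in which *Slc17a7* was lowest. In the nigra its share stayed at or under 4.79%. By contrast the split between the decarboxylases was nearly the same everywhere, with *Gad1* at 64.3 to 70.8% of the *Gad1* plus *Gad2* TPM in the striatum and 66.0 to 70.6% in the nigra.

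**Figure D2:**
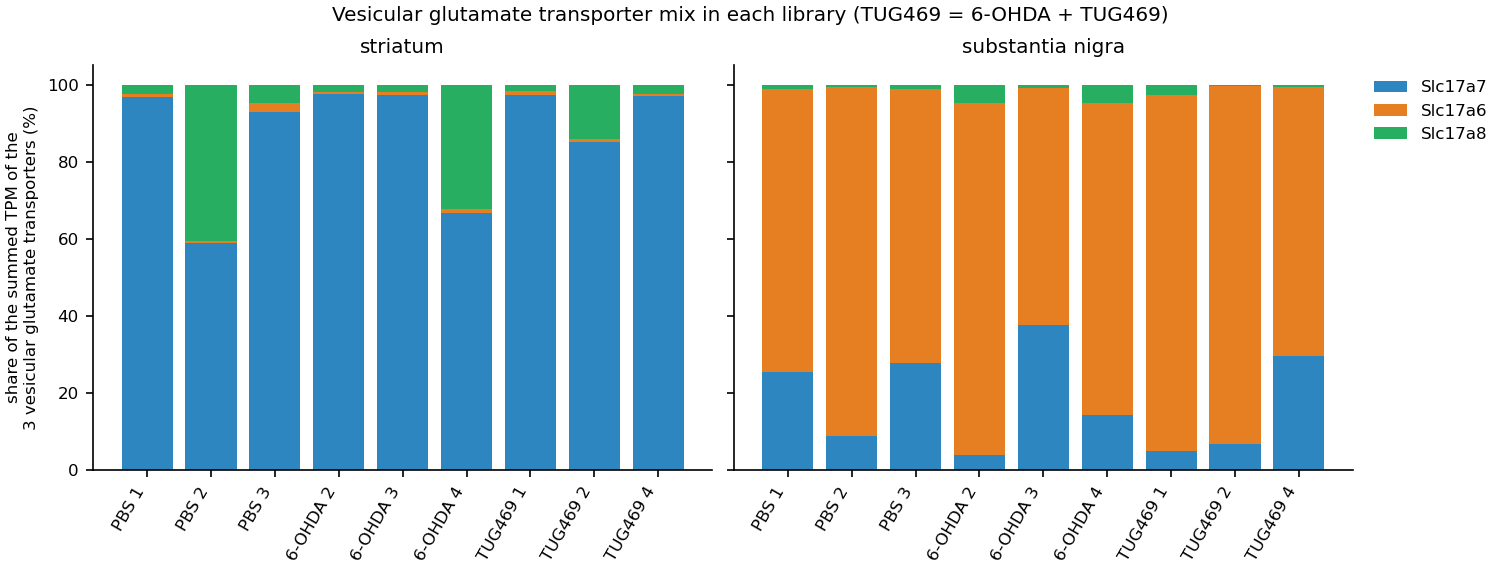
Share of the summed TPM of Slc17a6, Slc17a7 and Slc17a8 in each library (bars stack to 100%), striatum left and nigra right. Slc17a7 fills most of every striatal bar and Slc17a6 most of every nigral bar; the 3 striatal bars with a broad Slc17a8 band are PBS 2, 6-OHDA 4 and TUG469 2.

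The shares were also compared between treatments. The smallest p that an exact two-sided permutation test of 3 against 3 libraries can give is 0.1, so no such share could pass 0.05. The ratio of *Slc32a1* to the sum of *Gad1* and *Gad2* was the one measure that reached that floor, in striatal TUG469 libraries (0.326 ± 0.0333) against 6-OHDA libraries (0.267 ± 0.0144). In the nigra this ratio was 0.208 ± 0.0209 with PBS, 0.261 ± 0.0405 with 6-OHDA and 0.228 ± 0.0350 with TUG469. The sum of *Gad1* and *Gad2* itself was 555 ± 51.6 TPM in striatal and 526 ± 56.7 TPM in nigral PBS libraries.

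No listed gene passed the threshold in any of the 3 striatal comparisons by edgeR, and none had an unadjusted p under 0.05. The background there is also close to nothing: 0% of 19115 genes were called for 6-OHDA against PBS, 0.00523% (1 gene) for TUG469 against 6-OHDA and 0% for TUG469 against PBS, although 1434, 1431 and 2395 genes had an unadjusted p under 0.05. DESeq2 called 172, 61 and 327 genes in the same comparisons and none of the 6. In these comparisons the authors' deposited table gave 0.871%, 0.368% and 1.74% of genes an adjusted p under 0.05, and none of the 6 was among them. No listed gene had groups that did not overlap, beside 11.8%, 14.9% and 18.5% of all genes.

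*Slc17a7* varied far more within groups than between them. Its striatal levels were 262, 20.1 and 194 TPM in PBS 1, 2 and 3. They were 360, 408 and 24.7 TPM in 6-OHDA 2, 3 and 4, and 477, 66.3 and 427 TPM in TUG469 1, 2 and 4. One library of each treatment was low, so the groups overlapped throughout. For 6-OHDA against PBS the fitted difference was 0.69 on the log2 scale (SE 1.04, adjusted p = 0.941). It was 0.28 (SE 1.03, adjusted p = 0.972) for TUG469 against 6-OHDA and 0.96 (SE 1.04, adjusted p = 0.752) for TUG469 against PBS. Across the 9 libraries its highest CPM was 22.1 times its lowest. Its coefficient of variation, 71.5%, was at the 99.9th percentile of the 1135 striatal genes with a mean CPM between 0.5 and 2 times its own.

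Striatal *Slc17a6*, a low gene there, dipped in the same libraries. It stood at 2.605, 0.160 and 4.66 TPM with PBS, at 2.04, 2.90 and 0.451 TPM with 6-OHDA, and at 4.82, 0.612 and 2.50 TPM with TUG469. Its 6-OHDA change was −0.53 (SE 0.961, adjusted p = 0.950) and its highest CPM was 26.97 times its lowest. Pearson r of *Slc17a6* with *Slc17a7* was 0.918 over the 9 striatal libraries and −0.251 within the 6 that did not dip. These values are a description with no test.

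Most listed genes of cortical excitatory neurons moved with *Slc17a7* from library to library. *Tbr1*, a transcription factor of deep-layer cortical neurons, stood at 19.8, 1.06 and 17.1 TPM in the PBS libraries. It was at 23.8, 31.2 and 2.33 TPM with 6-OHDA and at 36.8, 5.53 and 31.97 TPM with TUG469, low in the same 3 libraries as *Slc17a7*. *Neurod6*, another cortical factor, was 1.48, 2.19 and 5.03 TPM in those 3 libraries and 17.6 to 30.5 TPM in the other 6. *Emx2* and *Nrgn*, also on the list, did not dip there. *Emx2* was 7.78, 7.43 and 7.50 TPM in those 3 libraries and 6.16 to 9.93 TPM in the other 6. *Nrgn* was 1951, 1821 and 1889 TPM in the same 3. Of the 12 genes on the cortical list 11 had a row in the striatum table, *Neurod1* being the one without. Their summed level ran from 1040 to 1269 CPM with PBS, 918 to 1178 CPM with 6-OHDA and 1080 to 1315 CPM with TUG469, a sum dominated by *Nrgn*, which striatal neurons also express (1384 to 2068 TPM). None of these genes was called between treatments; the list's median change was 0.39 for 6-OHDA against PBS, 0.30 for TUG469 against 6-OHDA and 0.69 for TUG469 against PBS, beside medians of −0.0024, 0.00013 and 0.0018 over all genes tested. The part that cortical cells in the dissected piece play in the striatal values of *Slc17a7* was not tested. Fewer cells of a type and less RNA per cell cannot be told apart in these bulk samples.

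**Figure D3:**
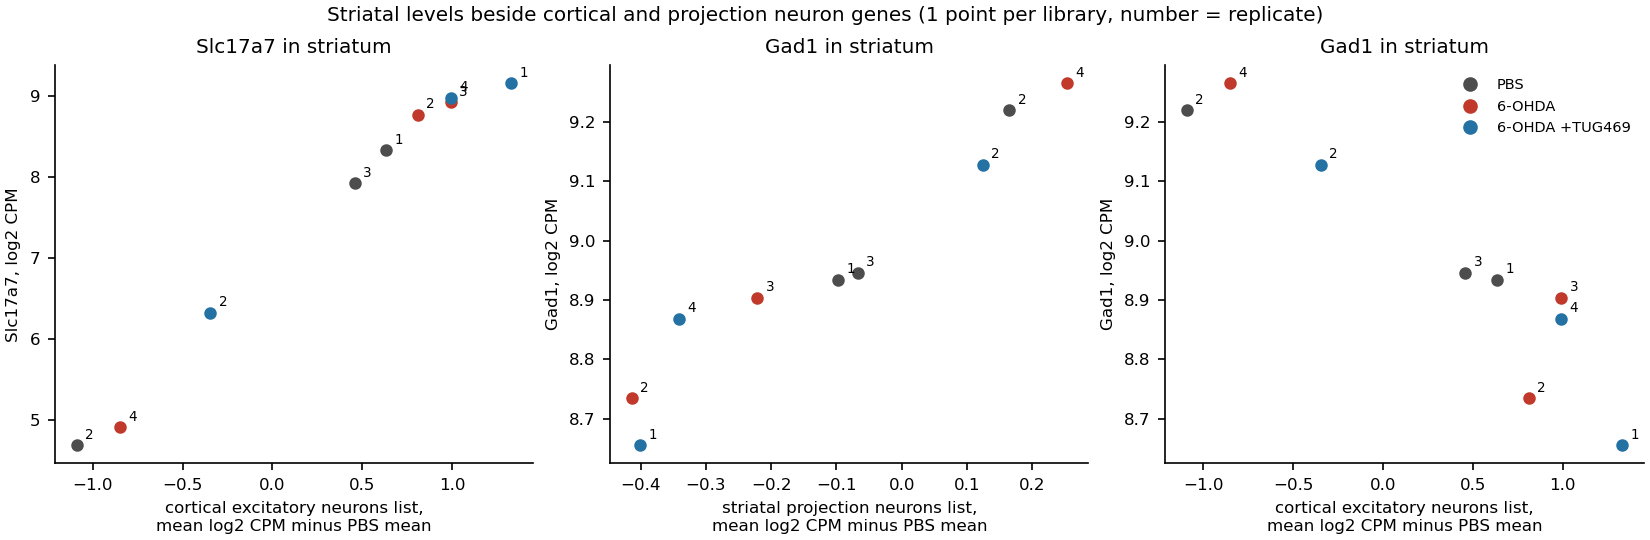
Striatal libraries (1 point each, numbered by replicate, coloured by treatment): Slc17a7 in log2 CPM against the mean log2 CPM of the cortical list, and Gad1 against the projection neuron list and the cortical list, each list relative to its PBS mean. PBS 2, 6-OHDA 4 and TUG469 2 lie lowest for cortical genes and Slc17a7 and highest for Gad1.

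*Gad1* stood the other way in those 3 libraries. It was 416, 453 and 416 TPM in PBS 2, 6-OHDA 4 and TUG469 2, and 303 to 359 TPM in the other 6 striatal libraries, with no overlap. Within each treatment the library low in *Slc17a7* was the one highest in *Gad1*. *Gad2* did not separate them: PBS 2 and TUG469 2, at 194 and 192 TPM, lay below PBS 3 at 195 TPM, and 6-OHDA 4 was highest at 251 TPM. *Slc32a1* was 177, 185 and 202 TPM in the 3 libraries, the highest values of the 9, with PBS 1 close by at 176 TPM. The summed level of the 12 projection neuron genes was 6467 to 8625 CPM with PBS, 5237 to 8097 CPM with 6-OHDA and 5350 to 7888 CPM with TUG469. The highest of each treatment was PBS 2, 6-OHDA 4 or TUG469 2, and the other 6 libraries ran from 5237 to 6789 CPM. When the 3 libraries were left out, a choice made after seeing the data, none of the 6 genes was called in any striatal comparison, and the *Slc17a7* changes were 0.71, 0.22 and 0.93 (adjusted p = 0.317, 0.916 and 0.109) in the order given above.

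Between treatments no striatal GABA gene differed beyond the spread between libraries, and the intervals leave room for moderate changes. *Gad1* was 375 ± 35.2 TPM with PBS, 377 ± 69.6 TPM with 6-OHDA and 358 ± 56.3 TPM with TUG469. The 95% interval of its log2 change ran from −0.406 to 0.297 for 6-OHDA against PBS and from −0.495 to 0.209 for TUG469 against PBS. *Slc32a1* was 168 ± 15.03, 152 ± 30.7 and 168 ± 30.1 TPM in the same order, with a 6-OHDA change of −0.20 (interval −0.566 to 0.168, adjusted p = 0.850). *Gad2* had its widest difference between TUG469 (157 ± 30.2 TPM) and 6-OHDA (195 ± 48.9 TPM), −0.32 on the log2 scale (SE 0.200, 95% interval −0.770 to 0.123, adjusted p = 0.758). Over the 9 striatal libraries the coefficients of variation of *Gad1*, *Slc32a1* and *Gad2* were at percentiles 83.9, 88.7 and 96.1 of genes of like mean CPM, and the highest *Gad2* library was 1.92 times the lowest.

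Striatal *Slc17a8* was steadier than the other glutamate transporters. Its coefficient of variation, 26.0%, was still at percentile 95 of striatal genes of like mean CPM. Its levels were 6.47, 13.9 and 10.2 TPM with PBS, 7.51, 8.51 and 11.9 TPM with 6-OHDA, and 7.92, 10.97 and 10.6 TPM with TUG469. The groups overlapped, and its changes lay between −0.19 and 0.06 (adjusted p = 0.885 to 0.976). It varied closely with some genes of cholinergic neurons and less with others. *Slc5a7*, the high-affinity choline transporter, was 11.8 TPM in PBS 1 and 24.0 TPM in PBS 2, the lowest and highest libraries for *Slc17a8* too. *Chat*, choline acetyltransferase, was 31.5 TPM in PBS 2 and 16.1 to 23.9 TPM in the other 8 libraries. Over the 9 libraries Pearson r with *Slc17a8* was 0.978 for *Slc5a7* and 0.961 for *Chat*, and 0.758 for *Slc18a3*, the vesicular acetylcholine transporter, and 0.647 for *Lhx8*, a factor of cholinergic neurons. Without the 2 libraries farthest from the median these were 0.984, 0.982, 0.545 and 0.485, a description with no test. The cholinergic genes were added to the lists after values had been seen.

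In the nigra again no listed gene passed the threshold by edgeR in any of the 3 treatment comparisons. The background was 0.00508% of 19686 genes (1 gene) for 6-OHDA against PBS, 0.00508% (1 gene) for TUG469 against 6-OHDA and 1.85% (364 genes) for TUG469 against PBS. Unadjusted p-values under 0.05 were found for 2 listed genes, *Slc17a6* and *Slc6a5*, in each of the first 2 comparisons and for 0 in the third, beside 14.3%, 8.2% and 19.7% of all genes. DESeq2 called 437, 97 and 1560 genes, among them 1 listed gene, *Slc17a6*, for 6-OHDA against PBS. The authors' deposited table gave 3.07%, 0.516% and 9.63% of genes an adjusted p under 0.05, with the same single listed gene.

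Nigral *Slc17a6* gave the tightest comparison. It stood at 206, 216 and 213 TPM in the PBS libraries, at 181, 185 and 167 TPM in the 6-OHDA libraries and at 191, 210 and 197 TPM in the TUG469 libraries. All 6-OHDA values lay below all PBS values and below all TUG469 values, which overlapped PBS. The log2 difference of 6-OHDA from PBS was −0.20 (SE 0.0548, 95% interval −0.327 to −0.0827, unadjusted p = 0.00384), a 1.15-fold lower level. Adjusted over all genes this p was 0.203 by edgeR and 0.0373 by DESeq2. The authors' deposited table, made from the same libraries, gave a 1.15-fold lower level with an adjusted p of 0.0399. Leaving out 1 library at a time gave adjusted p-values from 0.170 to 0.592 by edgeR. The other alternatives, DESeq2 among them, gave 0.0373 to 0.454. TUG469 against 6-OHDA gave 0.17 (SE 0.0548, unadjusted p = 0.00971, adjusted p = 0.524), and TUG469 against PBS gave −0.030 (SE 0.0547, adjusted p = 0.797). The first and second of these comparisons share the 6-OHDA libraries.

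*Slc17a6* was the 1 listed gene of 7 whose groups did not overlap, in the first 2 nigral comparisons alone. Over all genes 20% of groups did not overlap for 6-OHDA against PBS and 14.4% for TUG469 against 6-OHDA, so 1 of 7 is near that background. For TUG469 against PBS it was 0 of 7, beside 24% of all genes. Genes of thalamic neurons, which also use VGLUT2, were followed beside it. All 9 of that list had a row in the nigra table, and their summed level was 716 to 1127 CPM with PBS, 410 to 863 CPM with 6-OHDA and 440 to 1138 CPM with TUG469. For 6-OHDA against PBS 8 of the 9 were lower and the median change was −0.80, beside −0.0016 over all genes, with 0 called. They did not follow *Slc17a6* in every library or comparison: 6-OHDA 3, at 863 CPM, was within the PBS range, and for TUG469 against PBS 7 of the 9 were lower with a median of −0.38. In 6-OHDA against PBS other lists leaned too, again with 0 called. Cortical genes (8 of 11, median 0.74) and midbrain dopamine neuron genes (9 of 11, median 0.43) were mostly at higher values. Projection neuron genes (9 of 12, median −0.34) were mostly at lower ones. The cortical lean was mainly that of 1 library. Relative to PBS, the mean log2 level of that list was 1.10 in 6-OHDA 3, but 0.0084 and 0.11 in 6-OHDA 2 and 4. For the projection neuron list this level was 0.51 in PBS 1, and −0.29 and −0.22 in PBS 2 and 3. It was −0.25, −0.41 and −0.41 in 6-OHDA 2, 3 and 4. With smaller medians, 10 of 10 oligodendrocyte genes (0.21) and 10 of 12 general neuronal genes (0.14) were higher and 8 of 10 astrocyte genes (−0.14) lower. The part of thalamic or other cells in the *Slc17a6* difference was not tested.

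*Slc17a7* was as uneven in the nigra as in the striatum. Its levels were 71.1, 20.8 and 83.2 TPM with PBS, 7.41, 113 and 29.4 TPM with 6-OHDA, and 10.0, 15.2 and 82.8 TPM with TUG469. The high libraries were PBS 1, PBS 3, 6-OHDA 3 and TUG469 4, so every group held a high and a low one. The 6-OHDA change was −0.18 with an SE of 0.966 (adjusted p = 0.946), and the highest CPM was 15.6 times the lowest. *Prkcd*, a kinase abundant in thalamic neurons, was 224 and 287 TPM in PBS 1 and 3, 189 TPM in 6-OHDA 3 and 296 TPM in TUG469 4, the 4 libraries high in *Slc17a7*. In the other 5 it was 14.7 to 94.8 TPM. *Tbr1* was 6.83 TPM in 6-OHDA 3, the library highest in *Slc17a7*, and 0.182 to 1.39 TPM in the other 8. Of the 5 low nigral libraries 3 carry the treatment and number of the libraries low in the striatum, PBS 2, 6-OHDA 4 and TUG469 2. 6-OHDA 2 and TUG469 1 were low in the nigra alone. The labels do not say whether same-numbered libraries of the tissues come from the same mouse.

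*Slc6a5*, the glycine transporter, had the widest range of the 7 genes in the nigra relative to its level, its highest CPM being 19.9 times its lowest. It was at 2.43, 3.82 and 2.43 TPM in the PBS libraries, at 9.83, 2.86 and 33.0 TPM in the 6-OHDA libraries and at 7.77, 1.86 and 1.62 TPM in the TUG469 libraries. The 6-OHDA group held the highest libraries and also 1 within the PBS range. The fitted change was 2.43 for 6-OHDA against PBS (SE 0.776, 5.41-fold, unadjusted p = 0.0105, adjusted p = 0.240) and −2.26 for TUG469 against 6-OHDA (SE 0.768, unadjusted p = 0.0146, adjusted p = 0.540). Leaving out 1 library at a time moved the first value between 1.08 and 2.92. In the authors' deposited table the fold was 5.43 with an adjusted p of 0.112. Its coefficient of variation, 145%, was at percentile 100, after rounding, of the 5050 nigral genes of like mean CPM.

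*Slc17a8* was uneven across the nigra in the same libraries. Its levels were 3.41, 1.36 and 3.62 TPM with PBS, 9.22, 2.96 and 9.88 TPM with 6-OHDA, and 5.40, 0.692 and 1.47 TPM with TUG469. The 3 highest libraries were 6-OHDA 4, 6-OHDA 2 and TUG469 1, which were also the 3 highest for *Slc6a5*. The fitted changes were 1.43 for 6-OHDA against PBS (SE 0.691, adjusted p = 0.376) and −1.53 for TUG469 against 6-OHDA (SE 0.692, adjusted p = 0.608). Neither held up against the spread between libraries.

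Most of the serotonin and cholinergic neuron genes looked at after these values were seen were high in those 3 libraries too. *Tph2*, the enzyme that starts serotonin synthesis in neurons, was 117 and 106 TPM in 6-OHDA 2 and 4 and 87.6 TPM in TUG469 1. It was 23.9 to 39.4 TPM in 6-OHDA 3 and the PBS libraries, and 2.33 and 0.764 TPM in TUG469 2 and 4. *Slc6a4*, the serotonin transporter, ran from 62.4 to 73.7 TPM in the first 3 and from 0.230 to 26.4 TPM in the other 6. Among cholinergic genes, *Chat* was 6.73 to 8.01 TPM in the first 3 and 1.16 to 6.17 TPM in the other 6, and *Slc18a3* was at least 6.93 TPM in the first 3 and 1.21 to 4.83 TPM in the other 6. *Slc5a7* hardly set the first 3 apart, at 10.65 TPM in 6-OHDA 2 beside 10.44 TPM in 6-OHDA 3 and 10.3 TPM in PBS 2. Nor did *Lmx1b*, a factor of dopamine and serotonin neurons, at 2.60 TPM in TUG469 1 beside 2.54 TPM in PBS 1. Pearson r with nigral *Slc17a8* was 0.881 for *Slc18a3*, 0.847 for *Chat* and 0.808 for *Tph2* over the 9 libraries, and with *Slc6a5* it was 0.851, 0.596 and 0.702. For *Slc5a7* r was 0.806 with *Slc17a8* and 0.681 with *Slc6a5*. Without the 2 libraries farthest from the median, r with *Slc17a8* was 0.695 for *Slc18a3*, 0.890 for *Chat*, 0.848 for *Tph2* and 0.523 for *Slc5a7*. Of the 10 genes listed for hindbrain neurons, mostly Hox and Phox2 factors, 0 had a row in the nigra table. A gene has no row if its count was below 1 in any library, so this cannot tell whether those 3 libraries held them. The part of serotonin, cholinergic or other cells in the *Slc17a8* and *Slc6a5* values was not tested.

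**Figure D4:**
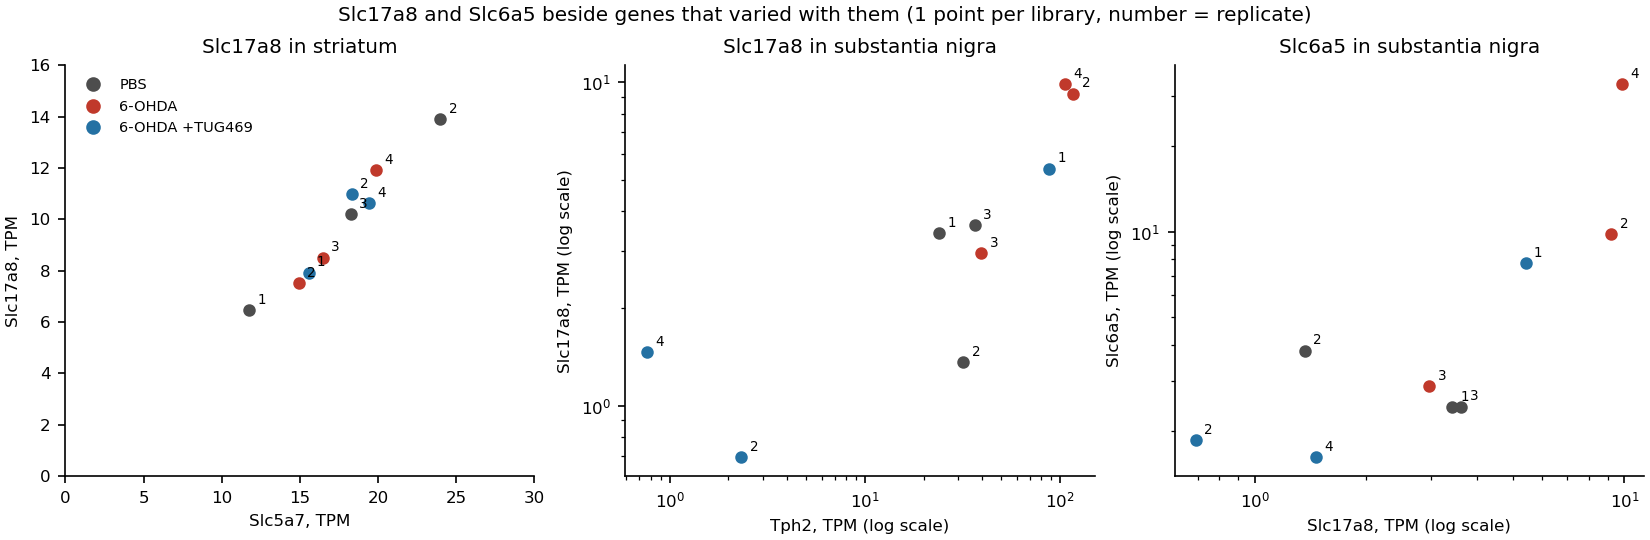
Slc17a8 TPM against Slc5a7 TPM in the striatum (linear axes), Slc17a8 against Tph2 in the nigra and Slc6a5 against Slc17a8 in the nigra (log axes), 1 numbered point per library coloured by treatment. In the nigra 6-OHDA 2, 6-OHDA 4 and TUG469 1 lie at the top for Slc17a8, Tph2 and Slc6a5, and TUG469 2 and 4 near the bottom.

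No nigral GABA gene differed between treatments beyond the spread between libraries. *Gad1* was 353 ± 45.5 TPM with PBS, 360 ± 8.12 TPM with 6-OHDA and 370 ± 11.3 TPM with TUG469. *Gad2* was 173 ± 11.7, 163 ± 14.2 and 162 ± 11.3 TPM in the same order. The 95% interval of the log2 change with 6-OHDA was −0.091 to 0.248 for *Gad1* and −0.204 to 0.113 for *Gad2*. *Slc32a1* was 118, 113 and 95.4 TPM with PBS, 153, 113 and 144 TPM with 6-OHDA and 141, 124 and 100 TPM with TUG469, groups that overlapped. Its 6-OHDA change was 0.28 (1.22-fold, SE 0.130, 95% interval −0.00554 to 0.571, unadjusted p = 0.0538, adjusted p = 0.355), larger in size than that of *Slc17a6* with a wider error. Its coefficient of variation was at percentile 92.6 of nigral genes of like mean CPM, and those of *Gad1* and *Gad2* were at 55.1 and 36.6. Over the 9 nigral libraries Pearson r of *Slc32a1* with the mean log2 level of the thalamic list was −0.964, a description with no test. With the same list r was 0.861 for *Slc17a7* and 0.642 for *Slc17a6*. The part of thalamic or other cells in the *Slc32a1* values was not tested.

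**Figure D5:**
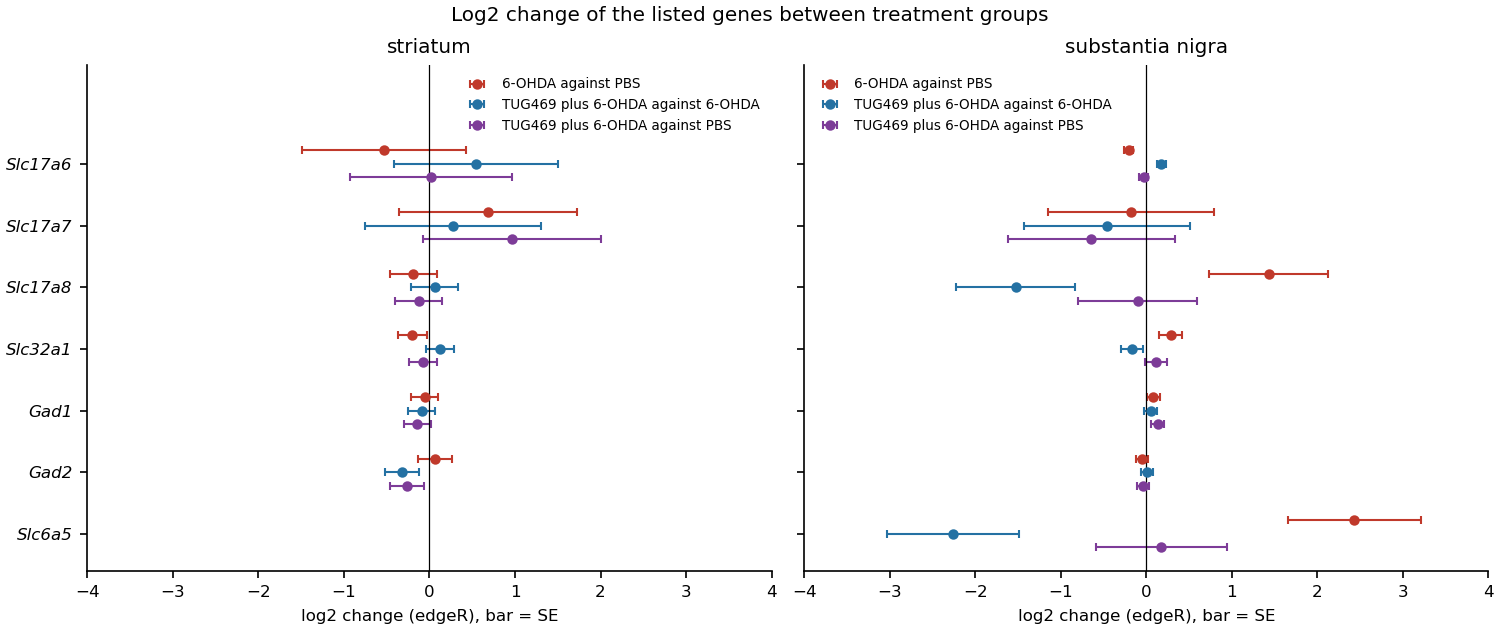
Log2 change of each gene in the 3 treatment comparisons of each tissue (points, edgeR estimate; bars, SE). Slc17a6 in the nigra has the shortest bars among the transporters, at −0.20 and 0.17, and Slc6a5 the widest displacement, at 2.43 and −2.26; no gene passed an adjusted p of 0.05.

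Whether a treatment acted differently in the tissues was tested as an interaction over all 18 libraries. None of the 6 genes was called for the 6-OHDA change (background 0.155% of genes) or the TUG469 change (0%, with 700 genes at an unadjusted p under 0.05). The nearest were *Slc32a1*, whose 6-OHDA change was 0.48 higher in the nigra (SE 0.233, unadjusted p = 0.0562, adjusted p = 0.425), and *Slc17a8*, whose 6-OHDA change was 1.62 higher (SE 0.813, unadjusted p = 0.0641, adjusted p = 0.445). None of the 6 had an unadjusted p under 0.05, by edgeR, and DESeq2 and limma also called 0.

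Genes that work around these transmitters were counted from lists. The counts in the comparison of tissues are to be read beside the 55.8% of all genes that passed the threshold there. In that comparison 5 of 7 tested genes for GABA uptake, breakdown and chloride balance were higher in the nigra and 0 lower, with a median of 0.45 beside 0.007 over all genes. The GABA transporter *Slc6a11* (GAT-3), largely of astrocytes, was 2.93 higher on the log2 scale (SE 0.144, adjusted p = 2.2e-10) and *Slc6a13* was 2.26 higher (SE 0.408, adjusted p = 0.000197). The potassium chloride cotransporter *Slc12a5* gave 0.04 (SE 0.112, adjusted p = 0.786).

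Of 12 genes for glutamate supply and clearance, 5 were higher in the nigra and 3 lower, 8 of 12 in all and so near the 55.8% of all genes. The neuronal glutamine transporter *Slc38a1* was 1.25 higher (SE 0.0609, adjusted p = 2.1e-10) and the glutaminase *Gls2* was 0.87 higher (SE 0.156, adjusted p = 0.000200). The lower ones were the glutamate uptake carriers *Slc1a1*, *Slc1a2* and *Slc1a3*, with *Slc1a2*, the main astrocytic carrier, at −0.85 (SE 0.0836, adjusted p = 3.9e-07). Glycine genes were divided, with 4 of 7 higher and 2 lower, beside the same 55.8%. The glycine receptor subunit *Glra3* was 3.36 higher (SE 0.372, adjusted p = 1.4e-06) and the glial glycine transporter *Slc6a9* was 1.71 higher (SE 0.120, adjusted p = 8.4e-09), whereas *Gldc*, of the glycine cleavage system, was lower, at −2.37 (SE 0.141, adjusted p = 1.5e-09).

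Of 8 other vesicular transporter genes, 3 were higher in the nigra and 3 lower, beside 55.8% of all genes in either direction. *Slc18a2*, the vesicular monoamine transporter of dopamine and serotonin neurons, differed by 6.13 (SE 0.624, adjusted p = 5.5e-07), a size like that of *Slc17a6*. *Slc18a3*, the vesicular acetylcholine transporter, was lower, at −1.34 (SE 0.460, adjusted p = 0.0207), and so was the vesicle protein *Sv2c*, at −1.15 (SE 0.231, adjusted p = 0.000508). In the 6 treatment comparisons none of the genes on these 4 lists passed the threshold by edgeR.

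The cell type lists were counted in the same way between the PBS libraries of the tissues, as context for the dissected pieces and beside 55.8% of all genes called in either direction. Of the projection neuron genes 11 of 12 were lower in the nigra, and of 10 tested cortical genes 7 were lower and 2 higher. Of 9 thalamic genes 7 were higher and 2 lower, and of 6 tested dopamine neuron genes 5 were higher and 0 lower. General neuronal genes, at 5 higher and 2 lower of 12, were near the share of all genes, 8 of 10 astrocyte genes were higher and 1 lower, 1 of 10 oligodendrocyte genes was higher, and all 10 microglia genes were lower. Of the subthalamic, mammillary and hypothalamic genes and of the hindbrain genes 0 were among those tested between the tissues. Between treatments edgeR called no gene of these lists in the striatum. In the nigra the dopamine transporter gene *Slc6a3* was lower with TUG469 against 6-OHDA, at −2.002 (SE 0.192, adjusted p = 0.0203), and against PBS, at −2.076 (SE 0.192, adjusted p = 0.00407). Against PBS the neuronal gene *Map2* and the astrocyte genes *Gjb6* and *Slc4a4* were also lower, by smaller amounts, and the oligodendrocyte gene *Opalin* was higher.

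For each listed gene the genes most like it within a tissue were taken as the 3 with the highest Pearson r of log2 CPM over the 9 libraries, among about 11408 striatal and 11757 nigral genes. Being picked as the highest, these r values carry no test. They were very high in the striatum, where 3 libraries stood apart from the other 6 for *Slc17a7* and *Slc17a6*. For *Slc17a7* they were the neuropeptide gene *Cck*, *Tbr1* and *Vxn*, and within the 6 libraries alone r was 0.951, 0.963 and 0.901. For *Gad1* they were *Pcp4l1* (r = 0.988, rho = 0.967), *S100pbp* (0.986, 0.950) and *Rarb* (0.980, 0.967). For *Slc32a1* they were *Pcdhb13* (r = 0.984, rho = 0.983), *Prkcz* (0.967, 0.917) and *Scn4b* (0.966, 0.850), and for *Gad2* they were *Alcam* (0.981, 0.983), *Neto1* (0.980, 0.950) and *Dstyk* (0.979, 0.983). *Slc17a8* had *Slc5a7* first (r = 0.978, rho = 0.933, and r = 0.984 without the 2 libraries farthest from its median), then *Tspyl2* and *Zfp942*. *Slc17a6* had *Faim2*, *Ebf4* and *Plxna1*.

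In the nigra other genes took these places. *Slc17a7* was most like *Car7* (r = 0.957, rho = 0.950), *Ube2w* and *Vps37a*. *Slc17a8* was most like *Fgd5* (r = 0.924, rho = 0.933), *Lmx1b* (0.924, 0.917), a factor of dopamine and serotonin neurons, and *Lbh*. *Slc6a5* had *Csk* (r = 0.992, rho = 0.967), *S100a10* and *Epdr1*, and without the 2 libraries farthest from its median r with *S100a10* was 0.802. *Slc32a1* had the opioid peptide gene *Penk* (r = 0.954, rho = 0.933) and *Fgfr1* (0.950, 0.983). For the genes that hardly varied, *Slc17a6* (*Yeats2*, *Axin2*, *Zfp956*), *Gad1* (*Rpp30*, *Sfxn4*, *Kiz*) and *Gad2* (*D11Wsu47e*, *Tbc1d15*, *Gab2*), r lay between 0.871 and 0.950. No gene was among the 3 most like the same listed gene in both tissues.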

How the data were processed

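RNA was measured in 18 libraries, 9 per tissue, prepared with a stranded mRNA kit per the labels' protocols. The submitters' processing notes name FastQC 0.11.7, Trim Galore 0.38, STAR 2.7.3a, Cufflinks and the build GRCm38; the counting rule and strand setting are not given in the sources used here. Read counts (not normalized), TPM and FPKM per gene were deposited, per the file headers. Beside these the authors deposited log2 normalized values with their group means, and, for each comparison, a signed fold, the SE of its log2 value, a score (test statistic) and p-values, unadjusted and adjusted. FPKM values were used here with the counts, to work out transcript lengths; the log2 values and scores were not used for results.

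Counts were tested with edgeR 4.0.16 in R 4.3.3 (TMM scaling, filterByExpr at its minimum count 10, minimum total 15, quasi-likelihood F test, Benjamini-Hochberg adjustment over all genes, threshold 0.05). All 9 libraries of a tissue shared 1 fit. The comparison of tissues and the interactions used all 18 libraries and the genes of both tables, which were deposited separately; raw counts were scaled together. Levels were compared between genes in TPM. Coordinates and promoters came from RefSeq (GRCm38.p6); 20207 of 20257 striatal and 20844 of 20897 nigral gene IDs matched. The fit was tested on simulated data based on the counts.

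Alternatives were DESeq2 1.42.0, limma 3.58.1 on log2(TPM + 1) and log2(TPM + 0.1), RLE size factors, no filter, a replicate block, a length trend removed, only the compared groups, and leaving out each library. The listed genes and the 16 gene lists were chosen with earlier results of these data known. Named from those lists are members past the threshold, up to 4 per list and comparison, defining genes that move with a listed gene, and the 3 genes most like each listed gene; a few others are said to have been added after their values were seen. *Slc12a5*, *Drd1*, *Th* and *Slc6a3* were named outside that rule. A few genes that the rule covers are not reported here.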

Additional observations from a re-analysis of the deposited data

How the results depend on the processing

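Over 57 results for single genes (a gene in a comparison), 1149 values under alternatives gave 1076 with the same direction and side of the threshold, 63 with the opposite sign, 5 that lost a call and 5 that gained one. None of the results whose sign turned was called. The number of listed genes called changed by more than 1.5 times in 1 case: for nigral 6-OHDA against PBS DESeq2 called 1 gene, *Slc17a6*. The cause of these shifts was not tested.

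Within a tissue, same-numbered libraries of different treatments showed no steady likeness. Their deviations from group means correlated between −0.264 and 0.417 in the striatum and between −0.172 and 0.238 in the nigra. In each tissue 3 of 6 pairs were over 0.1. Libraries of the same treatment and number in both tissues correlated at 0.0182 to 0.204, all 9 positive and 4 over 0.1; the labels do not say whether such a pair comes from 1 mouse, which bears on the tissue comparison and the interactions. With the replicate block 0 listed genes were called in every treatment comparison and 4 between tissues. Under the block the striatal 6-OHDA changes of *Slc17a6* and *Gad2* were 0.61 and −0.11, the change of *Slc17a7* with TUG469 against 6-OHDA was −0.044 in the striatum and 0.42 in the nigra, that of nigral *Gad2* was −0.045, and that of nigral *Slc6a5* with TUG469 against PBS was −0.68. With limma on log2(TPM + 1) and log2(TPM + 0.1), nigral *Gad2* with TUG469 against 6-OHDA gave −0.0060 and −0.0060, and the *Slc17a6* interaction with 6-OHDA gave −0.099 and −0.28. With log2(TPM + 0.1) the striatal 6-OHDA change of *Slc17a6* was 0.027 and the TUG469 change of *Slc17a8* against PBS was 0.0041. With the length trend removed, *Slc17a6* with TUG469 against PBS gave −0.0018 in the striatum and 0.013 in the nigra, and *Gad2* gave 0.028 for nigral 6-OHDA, 0.045 for nigral TUG469 against PBS and 0.0097 for its 6-OHDA interaction. Without the 3 striatal libraries low in cortical genes, *Gad2* gave −0.099 for striatal 6-OHDA and 0.070 for its 6-OHDA interaction, and with TUG469 against PBS striatal *Slc17a6* gave −0.058 and *Slc17a8* gave 0.083.

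Leaving out 1 library at a time gave log2 ranges that crossed 0 for the following. For striatal 6-OHDA against PBS they were −0.22 to 0.058 for *Gad1*, −0.17 to 0.17 for *Gad2*, −1.07 to 0.31 for *Slc17a6* and −0.44 to 0.12 for *Slc17a8*. For striatal TUG469 against 6-OHDA they were −0.22 to 0.081 for *Gad1*, −0.22 to 1.07 for *Slc17a6*, −0.26 to 0.76 for *Slc17a7*, −0.061 to 0.30 for *Slc17a8* and −0.038 to 0.31 for *Slc32a1*. For striatal TUG469 against PBS they were −0.75 to 0.86 for *Slc17a6*, −0.38 to 0.18 for *Slc17a8* and −0.24 to 0.029 for *Slc32a1*. For the nigra they were −1.61 to 0.33 for *Slc17a7* with 6-OHDA against PBS, and, with TUG469 against 6-OHDA, −1.99 to 0.97 for *Slc17a7* and −0.055 to 0.061 for *Gad2*. For nigral TUG469 against PBS they were −0.10 to 0.00077 for *Gad2*, −0.063 to 0.0052 for *Slc17a6*, −1.32 to 0.35 for *Slc17a8*, −0.011 to 0.23 for *Slc32a1* and −0.64 to 0.48 for *Slc6a5*. For the interactions they were −0.22 to 0.14 for *Gad2* and −0.47 to 0.88 for *Slc17a6* with 6-OHDA, and −0.032 to 0.28 for *Gad1*, −0.90 to 0.40 for *Slc17a6* and −2.26 to 0.68 for *Slc17a7* with TUG469. Counts of 13 to 530 limit the precision of striatal *Slc17a6*.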

Other observations

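GABA neurons of the striatum and nigra arise from different lineages, and factors that mark them were compared between the PBS libraries of the tissues. Of the 12 listed factors 6 were tested, of which 2 were higher in the nigra and 3 lower, beside 55.8% of all genes called in either direction. *Tal1*, a factor of midbrain GABA neurons, was 3.35 higher on the log2 scale (SE 0.268, edgeR adjusted p = 3.6e-08) and *Gata2* was 0.99 higher (SE 0.245, adjusted p = 0.00261). *Lhx6*, *Sp9* and *Six3*, factors of the ventral forebrain, gave −3.85 (SE 0.689, adjusted p = 0.000186), −3.37 (SE 0.398, adjusted p = 2.8e-06) and −1.61 (SE 0.187, adjusted p = 2.4e-06). None of the listed factors was called between treatments in either tissue by edgeR.

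Among 10 interneuron markers, 3 were higher in the nigra and 2 lower, a share no higher than the 55.8% of all genes. *Calb2* (calretinin) differed by 5.63 (SE 0.424, adjusted p = 1.9e-08) and *Pvalb* (parvalbumin) by 2.19 (SE 0.252, adjusted p = 2.1e-06). The peptide genes *Npy* and *Sst* were lower in the nigra, at −2.44 (SE 0.267, adjusted p = 1.2e-06) and −1.50 (SE 0.148, adjusted p = 3.8e-07). The third higher marker was *Th*, which dopamine neurons also express.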
